A study of Mus musculus with 12 samples.

Results

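The comparison of OV with 3NC mouse testes rested on 6 of the 12 RNA sequencing libraries of the series, 3 per group, chosen by their treatment labels. OV testes carried a virus meant to raise lncRNA8276, a long noncoding RNA. 3NC is a label that the sources used here do not spell out, and it was taken as a control virus group. The series also holds KD testes, whose virus was meant to inhibit lncRNA8276, and 5NC testes, whose label is likewise not spelled out. All 12 libraries came from F0 testes of a strain written as IRC mouse, and each was made from total RNA. No vector, promoter, dose, time after infection or age is given in the sources used here, nor whether the samples of a group were separate animals. P-values therefore measure the spread between these samples, which may be technical. The labels assign neither NC group to OV, and the design statement lists OV beside 5NC, so the KD and 5NC values are given beside those of OV and 3NC.

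Estimated reads per library came to between 15448442 and 16355720, with at least 1 read for 18624 to 18797 genes, and 16320 genes were tested. The germ cell content of the tissue was plain in the levels: the protamine gene Prm1, which packs DNA in elongating spermatids, had 3191, 2941 and 2962 CPM (reads in proportion to the library's total) in OV and 2911, 2729 and 3286 CPM in 3NC. Some libraries stood apart from their group. On the first principal component of all 12 libraries, with 19.1% of the variance, OV replicates 1 and 3 and 3NC replicate 2 scored -30.2, -30.3 and -29.0, while OV replicate 2 scored -10.3 and 3NC replicates 1 and 3 scored 11.99 and 10.6. Across genes, log2 levels of OV replicate 3 correlated with 3NC replicate 2 at 0.984, against 0.980 and 0.979 with the other OV libraries.

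Immediate early genes are switched on within minutes of a growth factor, hormone or stress signal, without new protein synthesis, largely through ERK and related kinases acting on factors bound to serum response and cAMP response elements. Their products include transcription factors of the FOS, JUN, EGR and NR4A families, and feedback inhibitors that end the signal. Testis somatic cells also take up and make cholesterol, the substrate of Leydig cell androgens, under the SREBP factors, which switch on sterol genes when sterol is scarce.

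With an adjusted p under 0.05 as the threshold (edgeR quasi-likelihood test, Benjamini-Hochberg adjustment over 16320 genes), 52 genes were called between OV and 3NC, which is 0.319% of those tested. Of these, 45 were lower in OV (0.276%) and 7 were higher (0.0429%). Over all genes the means were balanced, with 8152 higher and 8168 lower in OV and a median log2 fold change of 0.00. Log2 fold changes of the 45 lower genes reached -3.55, and 35 of them differed by more than 2-fold. Among the lower genes were 19 immediate early genes and feedback inhibitors and 6 members of the list of cholesterol synthesis genes and SREBP targets. In each of the 52 genes the 3 OV libraries lay wholly on one side of the 3NC libraries, as they did in 7.76% of all genes tested. Single libraries moved these counts. The number called was 28 without OV replicate 2, 81 without OV replicate 3, 28 without 3NC replicate 1 and 27 without 3NC replicate 3, and the number called higher was 41 without OV replicate 3, 26 without 3NC replicate 2 and 3 without OV replicate 1, 3NC replicate 1 or 3NC replicate 3. In all 6 fits with 1 library left out, 20 of the 52 were called, and they include Egr1, Egr2, Fos, Fosb, Btg2, Errfi1, Nr4a3, Myc, Insig1 and Lss. When KD and 5NC were left out of the fit, 18 genes were called. At an unadjusted p under 0.05, 352 genes (2.16%) were lower and 520 (3.19%) were higher in OV.

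**Figure D1:**
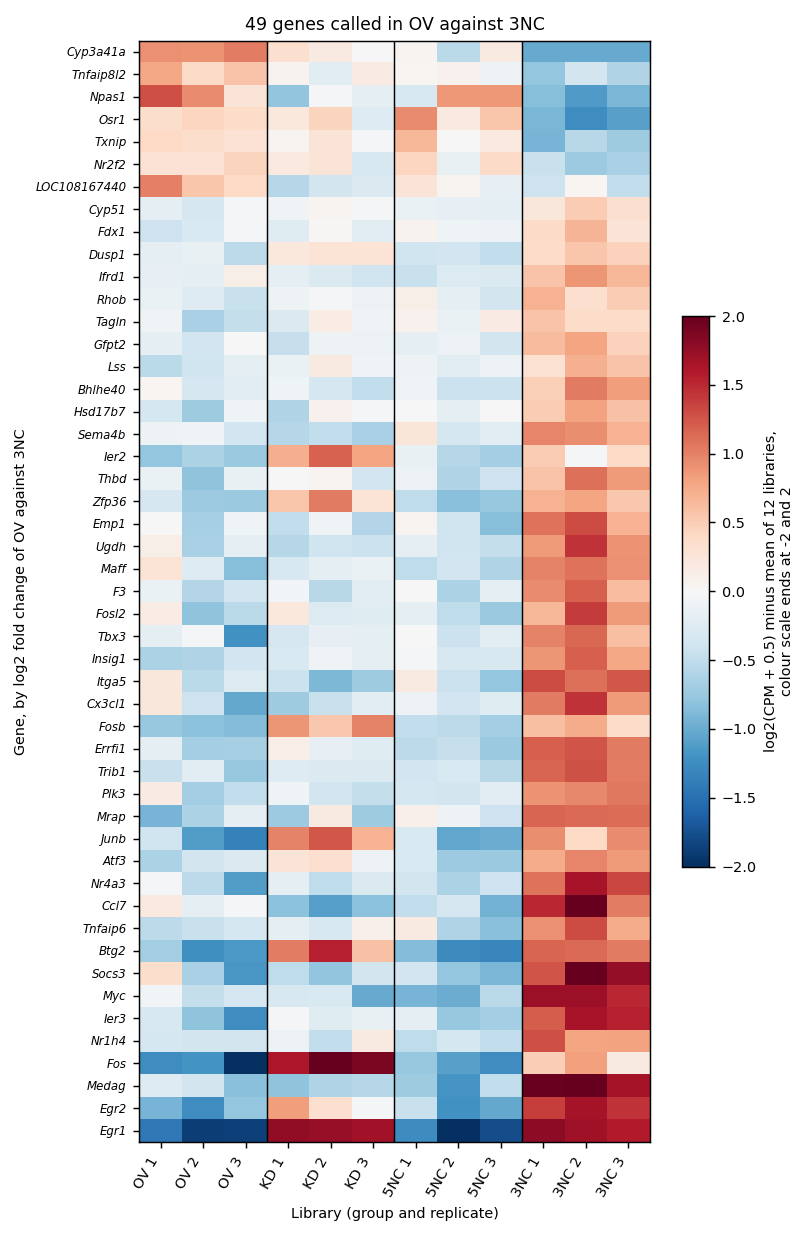
Heat map of 49 of the 52 called genes (rows, by log2 fold change of OV against 3NC) in 12 libraries (columns, 3 replicates for each of OV, KD, 5NC and 3NC). Colour is log2(CPM + 0.5) minus the mean of the 12 libraries, with the scale ended at -2 and 2; the 42 lower genes shown are redder in 3NC than in OV, and Egr1, Fos, Fosb, Junb, Btg2, Zfp36 and Ier2 stand high in KD as well.

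The edgeR calls depended on which NC group served as the control. With 5NC in place of 3NC, edgeR called 0 genes (0%) in OV, with a smallest adjusted p of 0.239, while 1697 genes had an unadjusted p under 0.05 and DESeq2 called 46. The control groups themselves differed, with 59 genes called in 5NC against 3NC (0.362%). KD against 3NC gave 29 calls (0.178%) and OV against KD gave 9 (0.0551%). These comparisons share libraries and are no independent evidence for each other. For the 45 genes lower in OV, the median log2 difference was -1.51 for OV minus 3NC, -0.21 for OV minus KD and -0.03 for OV minus 5NC, beside -1.17 for KD minus 3NC and -1.51 for 5NC minus 3NC. At the median, then, these genes stood higher in 3NC than in OV, KD and 5NC alike. Whether the OV virus, the 3NC virus or both set the difference cannot be told apart.

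The promoters of 5 genes lower in OV are shown because each holds an element through which early or stress signals are known to act. They are RefSeq windows on GRCm38.p6 (mm10), 5′ to 3′ on the gene's strand, from 250 bases before to 50 bases after a transcription start, with the element in capitals. The window of Egr2 (chr10:67537316-67537615, plus strand) holds a CArG box, the core of the serum response element, at base -72 from the start. That of Zfp36 (chr7:28379179-28379478, minus strand) holds one at -58. The windows of Btg2 (chr1:134079106-134079405, minus strand) and Errfi1 (chr4:150854820-150855119, plus strand) hold the cAMP response element TGACGTCA at -166 and -51. The window of F3 (chr3:121723287-121723586, plus strand) holds the AP-1 element TGANTCA at -146 and at -135.
Egr2: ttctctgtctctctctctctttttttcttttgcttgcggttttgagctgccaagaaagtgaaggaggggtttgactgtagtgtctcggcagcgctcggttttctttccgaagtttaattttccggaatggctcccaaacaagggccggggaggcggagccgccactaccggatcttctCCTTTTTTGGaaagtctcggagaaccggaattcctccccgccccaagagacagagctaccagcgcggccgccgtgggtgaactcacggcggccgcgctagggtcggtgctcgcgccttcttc
Zfp36: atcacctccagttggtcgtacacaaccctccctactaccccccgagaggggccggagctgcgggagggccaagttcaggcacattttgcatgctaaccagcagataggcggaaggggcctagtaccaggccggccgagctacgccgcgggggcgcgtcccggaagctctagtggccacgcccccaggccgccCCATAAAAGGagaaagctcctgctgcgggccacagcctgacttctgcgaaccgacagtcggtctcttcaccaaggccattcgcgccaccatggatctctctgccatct
Btg2: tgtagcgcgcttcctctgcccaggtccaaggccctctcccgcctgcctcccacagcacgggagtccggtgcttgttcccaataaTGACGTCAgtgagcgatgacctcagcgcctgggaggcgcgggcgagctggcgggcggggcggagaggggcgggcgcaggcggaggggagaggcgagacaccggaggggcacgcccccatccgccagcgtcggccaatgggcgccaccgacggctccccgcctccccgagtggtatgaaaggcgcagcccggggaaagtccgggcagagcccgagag
Errfi1: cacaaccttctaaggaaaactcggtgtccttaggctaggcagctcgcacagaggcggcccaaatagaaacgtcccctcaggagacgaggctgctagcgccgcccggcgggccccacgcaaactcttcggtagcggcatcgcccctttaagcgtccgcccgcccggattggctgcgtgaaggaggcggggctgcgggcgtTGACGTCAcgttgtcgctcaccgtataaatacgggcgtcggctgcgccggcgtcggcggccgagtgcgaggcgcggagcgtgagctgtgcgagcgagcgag
F3: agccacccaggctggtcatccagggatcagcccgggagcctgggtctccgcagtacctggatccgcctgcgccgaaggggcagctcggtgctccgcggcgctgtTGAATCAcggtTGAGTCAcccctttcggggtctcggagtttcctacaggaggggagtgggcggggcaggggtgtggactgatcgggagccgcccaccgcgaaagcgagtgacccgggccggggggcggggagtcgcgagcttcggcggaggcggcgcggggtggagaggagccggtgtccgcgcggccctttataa

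Promoter windows were at hand for 14 of the 19 early genes that were lower in OV and for 12905 of the 16320 genes tested. Both strands were searched, and a gene was counted if any of its windows held a match; in the windows shown no motif overlaps another. The cAMP response element was in 4 of the 14 (Btg2, Dusp1, Errfi1 and Maff), or 28.6%, and in 3.15% of genes with a window. A CArG box was in 2 of the 14 (Egr2 and Zfp36), or 14.3%, and in 1.57% of genes with a window. An NF-kB site was in 5 of the 14 (Fos, Fosb, Fosl2, Ier3 and Maff), or 35.7%, and in 6.18% of genes. That site was no mark of the lower genes alone. Antigen presentation genes, which had higher means in OV, held it in 4 of the 12 with a window, or 33.3%. Cholesterol genes held it in 3 of the 15 with a window, and the other genes lower in OV in 1 of 18. The AP-1 element was in 0 of the 14 and in 6.69% of genes, and among the other genes lower in OV it was in 4 of the 18 with a window (Emp1, F3, Gfpt2 and Tnfaip6). These are matches of letters in short windows, not sites shown to be bound.

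Immediate early transcription factors were the group with most calls. All 25 tested members had lower means in OV, 10 were called lower and 0 higher, and 13 had OV libraries wholly below the 3NC libraries. Over all genes tested, 0.276% were called lower, and in 7.76% the groups lay wholly apart, in either direction. The median log2 fold change of the 25 members was -0.70, against 0.00 over all genes. The number of these members called was 6 without OV replicate 2, 3NC replicate 1 or 3NC replicate 3, and 4 when KD and 5NC were left out.

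Egr1 (gene 13653, chromosome 18, 34861207 to 34864956), a zinc finger factor induced by ERK signalling, was the gene furthest past the threshold. It had 5.38, 3.76 and 3.81 CPM in OV and 54.1, 50.7 and 46.8 CPM in 3NC. The groups were far apart, with a log2 fold change of -3.55 ± 0.18 (SE) and an adjusted p of 1.51e-07. KD testes had 53.4, 52.4 and 50.3 CPM and 5NC testes 6.11, 3.29 and 4.10 CPM, so OV lay with 5NC, and KD with 3NC. Against KD, Egr1 in OV had a log2 fold change of -3.59 and an adjusted p of 1.29e-07. Its relative Egr2, which acts with it in growth factor responses, had 0.513, 0.313 and 0.624 CPM in OV and 4.50, 5.60 and 4.73 CPM in 3NC, a log2 fold change of -3.33 ± 0.36 with an adjusted p of 0.000525. Egr2 in KD, at 2.93, 1.94 and 1.40 CPM, lay between those groups.

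The FOS and JUN proteins pair to form the AP-1 factor. Fos had 0.769, 0.815 and 0.187 CPM in OV and 3.73, 4.81 and 2.89 CPM in 3NC. The OV values were all under 1 CPM, with a log2 fold change of -2.68 ± 0.42 and an adjusted p of 0.0145. In KD, Fos had 8.73, 18.3 and 10.5 CPM, above every OV, 5NC and 3NC library. Fosb had 1.99, 1.88 and 1.81 CPM in OV and 5.91, 6.51 and 4.92 CPM in 3NC, and the fold change was -1.61 ± 0.19 on the log2 scale (adjusted p = 0.000961). Junb had 5.77, 3.32 and 2.75 CPM in OV and 15.4, 10.5 and 15.5 CPM in 3NC, with a log2 fold change of -1.80 ± 0.28 (adjusted p = 0.0145). Fosl2 was also called, at -1.43 ± 0.27. Jun itself, whose product is the usual partner of FOS, was not called: it had 8.97, 9.65 and 8.30 CPM in OV and 12.3, 12.1 and 12.4 CPM in 3NC, with a log2 fold change of -0.45 ± 0.12 and an adjusted p of 0.291. Jund, at -0.11 ± 0.22, was not called either.

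Further factors were called lower. Nr4a3, a nuclear receptor without a known natural hormone, had 4.17, 2.82 and 1.69 CPM in OV and 9.57, 14.5 and 11.5 CPM in 3NC, a log2 fold change of -2.04 ± 0.26 (adjusted p = 0.00197). Its relative Nr4a1, prominent in Leydig cells after luteinising hormone, had -0.25 ± 0.14 and was not called. Myc, a driver of growth and ribosome production, had 1.09, 0.690 and 0.812 CPM in OV and 4.88, 4.93 and 4.20 CPM in 3NC, at -2.43 ± 0.31 on the log2 scale (adjusted p = 0.00197). For Nr4a3 and Myc, KD and 5NC lay near OV: Myc had 0.828, 0.842 and 0.319 CPM in KD and 0.366, 0.329 and 0.641 CPM in 5NC. Atf3, a stress-induced repressor, and Maff, a small bZIP factor, had log2 fold changes of -1.90 ± 0.32 and -1.42 ± 0.27 with adjusted p of 0.0199 and 0.0447.

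**Figure D2:**
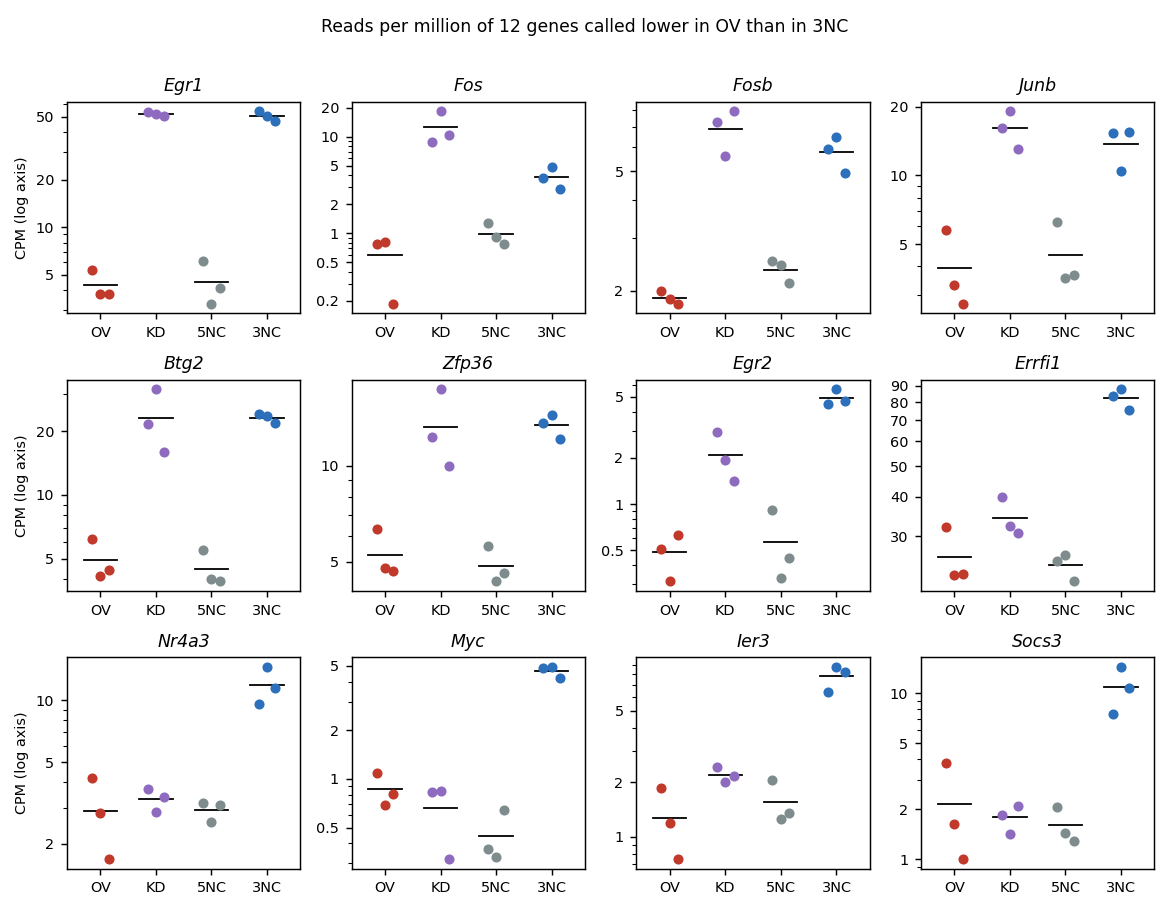
CPM (log axis, a scale per panel) of 12 genes called lower in OV than in 3NC, with 1 point per library and a bar at the group mean, for OV, KD, 5NC and 3NC. Egr1, Fos, Fosb, Junb, Btg2 and Zfp36 are low in OV and 5NC and high in KD and 3NC, while for Egr2, Errfi1, Nr4a3, Myc, Ier3 and Socs3 the 3NC points lie above all others.

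Among other immediate early genes, 8 of 28 tested members were called lower, 0 were called higher, and 23 had lower means in OV, with a median log2 fold change of -0.41. The share called lower over all genes tested was 0.276%. Of these 8, not all held without single libraries: 4 members were called without OV replicate 2 or 3NC replicate 3, and 5 without OV replicate 3, 3NC replicate 1 or 3NC replicate 2. Errfi1 (gene 74155), an inhibitor of the EGF receptor, had 32.1, 22.6 and 22.7 CPM in OV and 83.5, 87.9 and 75.4 CPM in 3NC, at -1.67 ± 0.14 on the log2 scale (adjusted p = 6.71e-05). Btg2, which restrains cell division, had 6.22, 4.14 and 4.43 CPM in OV and 24.0, 23.5 and 21.9 CPM in 3NC, and its log2 fold change was -2.23 ± 0.23 (adjusted p = 0.000454). In KD, Btg2 had 21.7, 31.5 and 15.9 CPM. Zfp36 encodes tristetraprolin, which speeds decay of cytokine and early gene mRNAs. It had 6.35, 4.76 and 4.68 CPM in OV and 13.6, 14.4 and 12.1 CPM in 3NC, at -1.35 ± 0.20 on the log2 scale (adjusted p = 0.00756). Ier3 had 1.86, 1.19 and 0.749 CPM in OV and 6.36, 8.77 and 8.20 CPM in 3NC, a log2 fold change of -2.61 ± 0.28 (adjusted p = 0.000454). Other called members were Bhlhe40, a clock-linked repressor, at -1.03 ± 0.18, Ier2 at -1.15 ± 0.22, and the kinase gene Plk3 at -1.78 ± 0.34. Thbs1, at -1.01 ± 0.20 with an adjusted p of 0.0613, was not called, and Pim1, Arc and Btg1 had log2 values of 0.00, 0.08 and -0.06.

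Of 13 tested feedback inhibitors of ERK signalling, 1 was called lower and 11 had lower means, with a median of -0.33. It was Dusp1, a phosphatase that switches MAP kinases off. Dusp1 had 10.8, 11.2 and 8.49 CPM in OV and 16.3, 18.4 and 17.2 CPM in 3NC, with a log2 fold change of -0.76 ± 0.12 and an adjusted p of 0.0135. Dusp6 and Spry2, standard readouts of ERK activity, had log2 fold changes of -0.34 ± 0.17 and -0.55 ± 0.25 and were not called. Of 9 tested EGFR and MAP kinase ligands and receptors, edgeR and DESeq2 each called 0, and 0 had an unadjusted p under 0.05. Trib1, which steers proteins to degradation and binds MAP kinase kinases, lay outside these lists. It had 4.17, 5.01 and 3.25 CPM in OV and 13.7, 14.9 and 12.4 CPM in 3NC, at -1.72 ± 0.16 on the log2 scale (adjusted p = 0.000123).

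Of 22 tested genes of cholesterol synthesis and SREBP targets, 6 were called lower in OV and 0 higher, 20 had lower means, and 17 had an unadjusted p under 0.05 in the lower direction. Their median log2 fold change was -0.48, and in 17 of them the OV libraries lay wholly below the 3NC libraries. The list median was -0.18 for OV minus KD and -0.19 for OV minus 5NC. It was -0.37 for KD minus 3NC and -0.34 for 5NC minus 3NC. At the median, then, this list stood higher in 3NC than in OV, KD and 5NC alike. Over all genes tested, 0.276% were called lower and 2.16% were lower at an unadjusted p under 0.05. The groups lay wholly apart in 7.76% of all genes, in either direction. The number of sterol genes called was 2 without OV replicate 2, 3 without OV replicate 1, 4 without 3NC replicate 1 and 11 with DESeq2. It was 2 when KD and 5NC were left out. Insig1 (gene 231070, chromosome 5, 28071412 to 28078662), which holds SREBP in the endoplasmic reticulum and is itself an SREBP target, had 17.7, 18.1 and 21.2 CPM in OV and 51.5, 63.6 and 47.3 CPM in 3NC. No OV library reached the lowest 3NC library, and the log2 fold change was -1.51 ± 0.13 (adjusted p = 6.71e-05). Insig1 in KD, at 22.2, 26.2 and 24.0 CPM, and in 5NC, at 27.3, 22.1 and 21.9 CPM, was also under every 3NC library.

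Along the pathway, Lss, which closes the sterol rings, had 19.9, 22.0 and 25.8 CPM in OV and 36.2, 48.1 and 43.5 CPM in 3NC, a log2 fold change of -0.91 ± 0.13 (adjusted p = 0.00542). OV lay wholly below 3NC. Cyp51, the sterol demethylase, was called at -0.54 ± 0.09 and Hsd17b7, a later reductase, at -1.05 ± 0.19. Hmgcs1, an early enzyme of the pathway, had a log2 fold change of -0.71 ± 0.14 and an adjusted p of 0.0655, Stard4, a sterol carrier, had -0.61 ± 0.13 and 0.0992, and Msmo1 had -1.14 ± 0.24 and 0.109, so none of the 3 was called. Srebf2, the factor itself, had -0.38 ± 0.11 and was not called. Insig2 and Srebf1 had means higher in OV, at 0.16 ± 0.10 and 0.09 ± 0.14 on the log2 scale, and were not called.

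**Figure D3:**
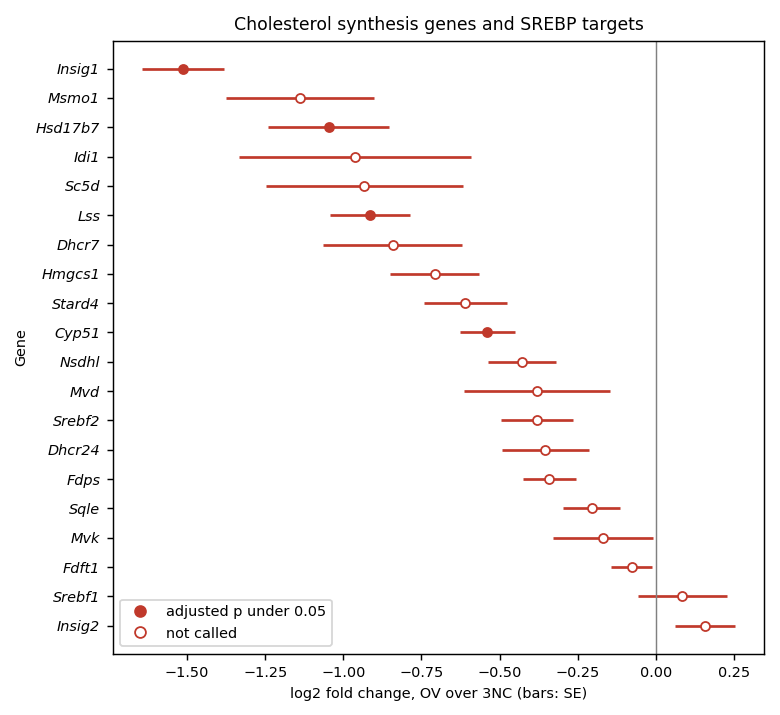
Log2 fold change of OV over 3NC with its SE for 20 of the 22 tested cholesterol synthesis genes and SREBP targets; filled points have an adjusted p under 0.05. Of the 20, 18 lie left of 0, with Insig1 furthest at -1.51 and Insig2 furthest right at 0.16.

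The Leydig cell list had 16 of 21 tested members with lower means and a median of -0.26. The list median was -0.11 for OV minus KD and -0.37 for OV minus 5NC. It was -0.16 for KD minus 3NC and 0.01 for 5NC minus 3NC. The list had 2 genes called lower, where 0.276% of all genes tested were called lower. Among the 2 was Fdx1, whose ferredoxin passes electrons to the side-chain cleavage enzyme of steroid synthesis. Fdx1 had 30.1, 32.3 and 39.1 CPM in OV and 52.3, 65.0 and 48.3 CPM in 3NC, a log2 fold change of -0.71 ± 0.13 (adjusted p = 0.0301). Mrap, a partner that carries melanocortin receptors to the cell surface, was called lower too but lay outside this list. It had 3.01, 3.82 and 5.43 CPM in OV and 14.6, 14.2 and 14.0 CPM in 3NC, at -1.80 ± 0.26 on the log2 scale (adjusted p = 0.00581). Star, which moves cholesterol into mitochondria, had 84.9, 127.0 and 232.1 CPM in OV and 234.7, 389.3 and 273.8 CPM in 3NC. The OV libraries were spread widely, and Star was not called, at -1.02 ± 0.35 with an adjusted p of 0.655. Insl3, a Leydig cell hormone, had 690.3, 690.7 and 694.1 CPM in OV and 758.7, 654.2 and 756.5 CPM in 3NC, so the groups overlapped. The summed level of the Leydig list was 1941 to 2859 CPM in OV and 2733 to 3184 CPM in 3NC, and its part in the sterol result was not tested. In whole tissue, fewer cells of a type and less RNA per cell cannot be told apart.

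The remaining called lower genes came from several groups. Medag, known from fat cell differentiation, had 2.18, 2.01 and 1.31 CPM in OV and 12.1, 14.2 and 9.71 CPM in 3NC, a log2 fold change of -2.71 ± 0.24 (adjusted p = 7.50e-05). Socs3, the inhibitor that STAT3 induces against its own signal, had 3.78, 1.63 and 0.999 CPM in OV and 7.52, 14.4 and 10.8 CPM in 3NC, at -2.35 ± 0.37 (adjusted p = 0.0149). It was the only one of 13 tested IL-6 family and SOCS genes called. Among 13 tested chemokines, Ccl7, which draws monocytes, had 0.897, 0.564 and 0.687 CPM in OV and 2.96, 4.38 and 1.97 CPM in 3NC, at -2.11 ± 0.38 (adjusted p = 0.0301). Cx3cl1, a membrane-bound chemokine, was called at -1.61 ± 0.29, and Ccl2 was not, at -2.57 ± 0.64 (adjusted p = 0.201). In the other direction, Ccl8 had 34.5, 34.0 and 13.7 CPM in OV and 1.48, 12.7 and 1.31 CPM in 3NC, and at 2.40 ± 0.80 it was not called (adjusted p = 0.641).

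Of 10 tested hyaluronan genes, Ugdh, which makes the sugar acid of hyaluronan chains, and Tnfaip6, which links proteins to those chains, were called lower at -1.38 ± 0.21 and -2.13 ± 0.41, with adjusted p of 0.0109 and 0.0447. F3, which encodes tissue factor and starts coagulation, had 3.65, 2.51 and 3.00 CPM in OV and 8.23, 9.92 and 6.43 CPM in 3NC, at -1.42 ± 0.23 on the log2 scale (adjusted p = 0.0149). Itga5, the fibronectin receptor subunit, was the one called gene of 20 tested integrin and focal adhesion genes, at -1.52 ± 0.27 (adjusted p = 0.0281). Also called lower were Tagln, a smooth muscle actin-binding gene, at -0.85 ± 0.17, Rhob, a small GTPase, at -0.81 ± 0.13, Sema4b at -1.08 ± 0.15 and Ifrd1 at -0.79 ± 0.11. Of the 7 genes called higher and 45 called lower, 51 were protein coding.

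The 7 genes higher in OV shared no list. Txnip (gene 56338), which binds thioredoxin and limits glucose uptake, had 113.2, 109.3 and 105.2 CPM in OV and 44.9, 58.4 and 52.1 CPM in 3NC, a log2 fold change of 1.08 ± 0.15 (adjusted p = 0.0057). In KD and 5NC, Txnip lay between 84.2 and 136.4 CPM, so 3NC was the low group. Cyp3a41a, a cytochrome of drug and steroid metabolism, had 69 reads over the OV libraries and 0 over the 3NC libraries, against 30 in KD and 22 in 5NC. Set against a floor of 3 reads over the group, it was 22.9-fold higher in OV, and the lower 95% counting bound on the ratio of 69 to 0 reads was 18.2-fold (adjusted p = 0.000961). Cyp3a41a has close copies in the genome, so its reads are of uncertain origin. Osr1, a factor of urogenital development, had 2.12, 2.26 and 2.12 CPM in OV and 0.578, 0.365 and 0.459 CPM in 3NC, at 2.20 ± 0.34 on the log2 scale (adjusted p = 0.0104). Nr2f2, a nuclear receptor of stromal and fetal Leydig lineages, had 7.69, 7.71 and 8.68 CPM in OV and 4.43, 3.59 and 3.81 CPM in 3NC, at 1.02 ± 0.20 (adjusted p = 0.0494). Tnfaip8l2, an immune regulator, Npas1, a bHLH-PAS factor, and LOC108167440, annotated as a long noncoding RNA gene, were called at 2.61 ± 0.46, 2.46 ± 0.44 and 0.98 ± 0.19. LOC108167440 had 22.9, 16.7 and 14.8 CPM in OV, above all KD, 5NC and 3NC libraries, whose values ran from 7.33 to 13.5 CPM.

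Antigen presentation genes had higher means in OV without a call. This held for all 17 tested members, of which 16 had an unadjusted p under 0.05, and the median log2 fold change was 1.51. Of all genes tested, 3.19% were higher in OV at that unadjusted threshold. The list median was 1.9939 for OV minus KD and 1.4992 for OV minus 5NC. It was -0.4589 for KD minus 3NC and 0.1824 for 5NC minus 3NC. At the median, then, this list stood higher in OV than in KD, 5NC and 3NC alike, though edgeR called 0 of its genes against 5NC. MHC class I molecules show peptides to cytotoxic T cells, class II molecules show them to helper T cells, and interferon raises both. H2-K1, a class I heavy chain, had 247.2, 173.2 and 132.2 CPM in OV and 62.9, 100.6 and 66.9 CPM in 3NC. OV lay wholly above 3NC, and the log2 fold change of 1.26 ± 0.24 had an adjusted p of 0.0972. H2-D1, the other classical class I chain, had 204.5, 154.8 and 165.2 CPM in OV and 69.9, 100.1 and 61.5 CPM in 3NC, at 1.18 ± 0.26 (adjusted p = 0.191). Reads of these near-identical genes may be shared between copies. The class II gene H2-Aa had 72.4, 48.7 and 32.4 CPM in OV and 5.59, 28.7 and 6.37 CPM in 3NC, at 1.91 ± 0.65 (adjusted p = 0.655), and the class II master regulator Ciita had 2.58 ± 0.85. For H2-K1, H2-D1 and H2-Aa, replicate 2 was the highest 3NC library.

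Interferon response genes had 29 of 30 tested members with higher means in OV, 19 of them at an unadjusted p under 0.05, 0 called, and a median of 1.24. The share of all genes higher at that unadjusted threshold was 3.19%. Ifit3, an antiviral gene, had 3.65, 5.08 and 3.50 CPM in OV and 1.22, 1.70 and 0.722 CPM in 3NC, at 1.73 ± 0.37 on the log2 scale (adjusted p = 0.0902). Irgm1, an interferon-gamma GTPase, had 27.4, 45.1 and 10.6 CPM in OV and 2.31, 28.1 and 4.99 CPM in 3NC, so the groups overlapped. As the mean of centred log2 levels over the 30 genes, OV libraries stood at 1.41, 1.59 and 0.40, KD at -1.13, -0.91 and -0.78, 5NC at 0.07, 0.65 and -0.80 and 3NC at -0.80, 0.77 and -0.48. OV replicate 3 was thus below 3NC replicate 2. The antigen list stood at 1.64, 1.46 and 0.50 in OV and at -0.85, 0.37 and -0.71 in 3NC.

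Macrophage markers went the same way in part, with 17 of 20 tested members at higher means in OV, 13 at an unadjusted p under 0.05, 0 called, and a median of 0.85. The share of all genes higher at that unadjusted threshold was 3.19%. C1qb, a complement subunit that macrophages make, had 32.4, 20.2 and 14.0 CPM in OV and 10.8, 12.6 and 11.4 CPM in 3NC, at 0.93 ± 0.24 (adjusted p = 0.256). The defining markers Cd68 and Adgre1 had 0.43 ± 0.30 and 0.53 ± 0.23, and Aif1 and Lyve1 had -0.08 ± 0.09 and -0.36 ± 0.61. The summed level of the list was 523 to 672 CPM in OV and 455 to 529 CPM in 3NC, with OV replicate 1 highest. Of the lymphocyte and granulocyte markers, 7 were tested, of which edgeR and DESeq2 each called 0 and 3 were higher in OV at an unadjusted p under 0.05, with a median of 0.12. Their list summed to 16.9 to 35.8 CPM in OV and 11.4 to 15.4 CPM in 3NC, again with OV replicate 1 highest, and the groups did not overlap. The part of either list in the antigen and interferon values was not tested. The calls in these lists changed with the libraries that stood apart: without OV replicate 3, edgeR called 7 antigen presentation, 2 interferon and 4 macrophage genes, and without 3NC replicate 2 it called 2, 1 and 1. On all libraries DESeq2 called 6, 4 and 4, and limma with voom and sample weights called 12, 11 and 5. Over all genes tested, these 4 fits called 81 of 16524, 56 of 16526, 108 of 16320 and 203 of 16320, in that order.

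**Figure D4:**
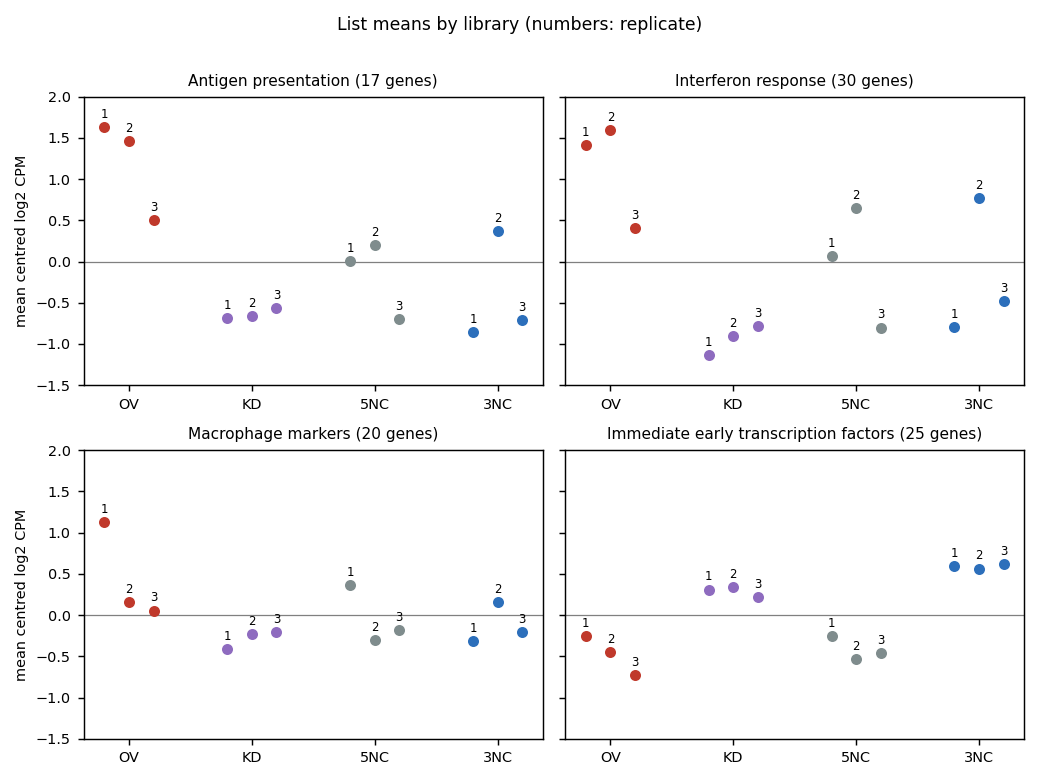
Mean centred log2 CPM over the tested members of 4 gene lists in each library (points, numbered by replicate) of OV, KD, 5NC and 3NC. For antigen presentation OV lies at 0.50 to 1.64 and 3NC at -0.85 to 0.37; for interferon response OV replicate 3 (0.40) lies under 3NC replicate 2 (0.77); for immediate early transcription factors OV lies at -0.72 to -0.25 and 3NC at 0.57 to 0.62.

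Germ cell genes differed little. Undifferentiated spermatogonia, meiotic recombination, pachytene spermatocyte, round spermatid and elongating spermatid lists, with 15, 23, 15, 17 and 21 tested members, each had 0 genes called by edgeR and 0 by DESeq2, with 1, 2, 0, 0 and 0 at an unadjusted p under 0.05, and medians of -0.14, -0.03, -0.03, -0.04 and -0.02. Spo11, which cuts DNA to begin meiotic recombination, had 29.1, 40.6 and 37.6 CPM in OV and 48.7, 45.4 and 49.2 CPM in 3NC, at -0.42 ± 0.13 on the log2 scale (adjusted p = 0.399). Izumo1, the sperm protein of egg fusion, had -0.11 ± 0.09. Of 25 Sertoli cell genes edgeR called 0 and DESeq2 1, with 2 at an unadjusted p under 0.05 and a median of 0.04, and Kitl, the ligand that spermatogonia need, had 21.8, 22.0 and 21.9 CPM in OV and 26.5, 43.8 and 29.7 CPM in 3NC (-0.61 ± 0.15, adjusted p = 0.201). Of 18 endothelial markers each tool called 0, with 3 at an unadjusted p under 0.05, each higher in OV, and a median of 0.18. Tight junction, NF-kB, hypoxia, p53 and cytosolic ribosomal protein lists also had 0 calls by either tool, with 1, 0, 0, 0 and 0 genes at an unadjusted p under 0.05 and medians of 0.06, 0.01, -0.03, 0.08 and 0.00. Among 20 tested NRF2 and oxidative stress genes, 6 had an unadjusted p under 0.05, each lower in OV, of which edgeR called 0 and DESeq2 called 2, with the metallothionein gene Mt2 at -0.37 ± 0.07 (adjusted p = 0.0519) and the haem oxygenase gene Hmox1 at -0.91 ± 0.21 (adjusted p = 0.1246). A p above the threshold does not show that a gene was equal in both groups.

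**Figure D5:**
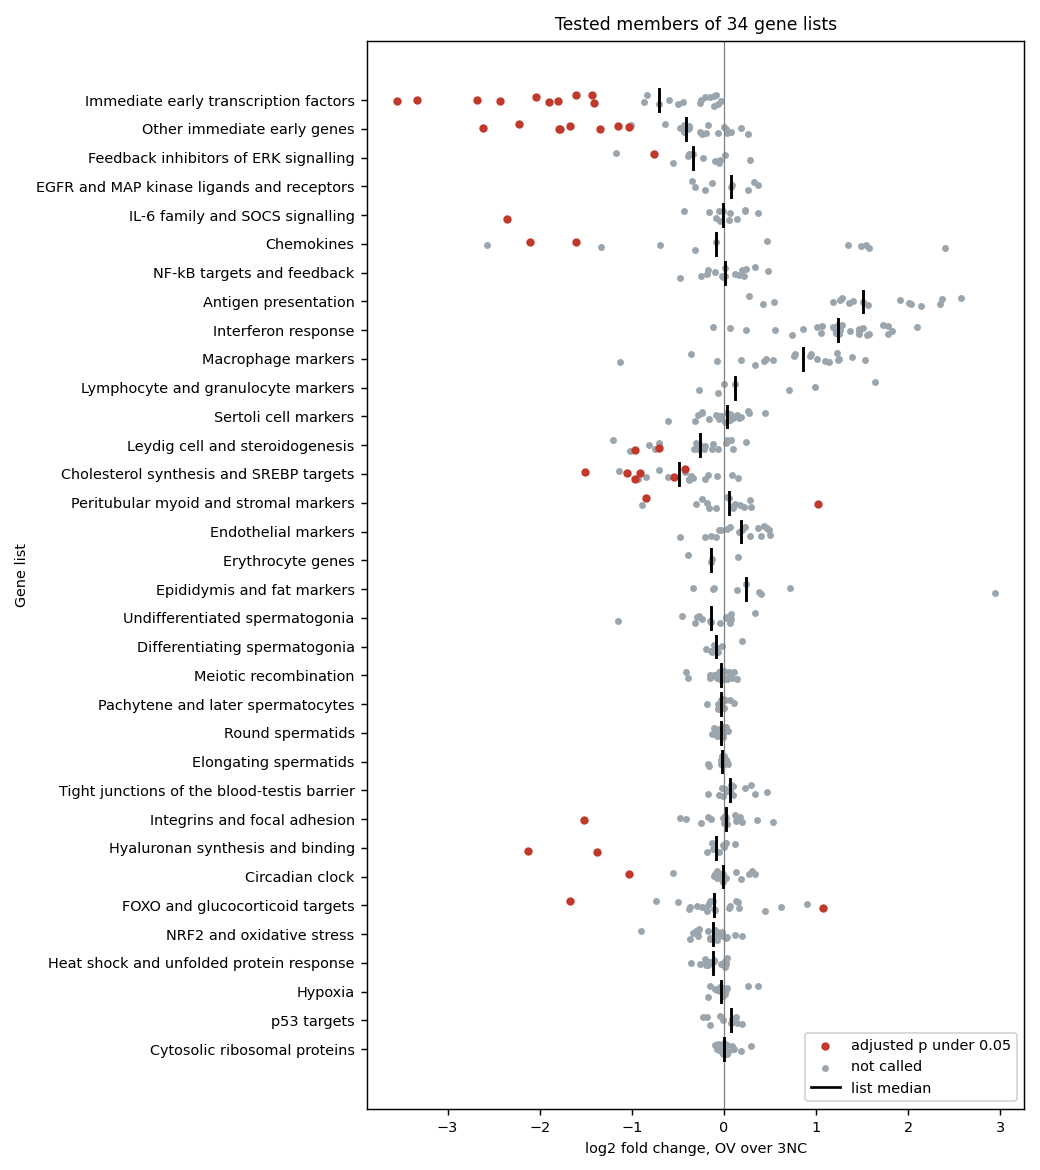
Log2 fold change of OV over 3NC (x axis) for every tested member of 34 gene lists (rows), with called genes in red, other genes in grey and the list median as a black bar. Called genes lie left of 0 except Nr2f2 and Txnip, the sterol median is -0.48, and the antigen presentation median is 1.51.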

How the data were processed

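RNA sequencing libraries of 12 mouse testis samples were grouped by their labels into OV, KD, 5NC and 3NC, 3 each. Per the file headers, the authors deposited expected counts for each gene and library, without normalisation; at a tolerance of 1e-06, 88.0% are whole, and all were rounded before the test. A further set of deposited values was taken here as FPKM, an inferred unit. For 5204 genes with more than 500 reads in each library, the value per read, scaled by the library's total, was compared across libraries. Its median deviation from the gene's own median was 0.282%. Gene length did not enter, so this check cannot tell FPKM from another unit scaled to the library total. The build was mm10, per the submitters' processing notes; no aligner, counter, annotation or strandedness is named in the sources used here. Of 20718 genes, 20564 identifiers (99.3%) matched the RefSeq gene table (GRCm38.p6), and 0 symbols hold the digits of lncRNA8276, whose level was not analysed here. A further 18 per-sample columns were not used.

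The test was that of edgeR 4.0.16, run in R 4.3.3 (quasi-likelihood, robust, TMM, 1 fit of all 4 groups with 8 residual degrees of freedom, minimum count 10, minimum total 15), and 16320 passed the filter. The common biological coefficient of variation was 0.13. Fold changes carry a prior count of 0.125; their SE is the fold change over the root of the F value. List levels use log2 CPM with a prior count of 2, centred on the 12 libraries. A gene with 0 reads over a group was set at 3 reads over the group. Such floors cover counting error only, and 3 reads came to 0.183 to 0.194 CPM per library. The test was checked on simulated data. Alternatives were DESeq2 1.42.0, limma 3.58.1 with voom weights and on log2(FPKM + 0.1) or log2(FPKM + 1), RLE factors, other filters, the 6 libraries alone, a replicate block, 5NC as control, and each library left out.

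The 34 gene lists (577 genes tested) and the comparison were chosen with earlier results of these data known. Named genes are all called higher, the 25 called lower of smallest p, other called genes in a list, and up to 2 of smallest p in lists without a call; further list members were named after their values were seen, and some named genes are not reported here. No replicates were duplicates: chi-square per gene between them was 3.86 to 21.3.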

Additional observations from a re-analysis of the deposited data

How the results depend on the processing

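The 52 calls kept their direction in every alternative with 3NC as control in which they were tested (51 were tested with the filter of 1 CPM in 3 libraries). They were all called again under RLE factors, DESeq2 and the looser filter, 50 under voom weights, 39 on log2(FPKM + 1), 28 on log2(FPKM + 0.1), 51 with the 1 CPM filter and 17 in the 6-library fit. Counts of called, lower and higher genes that moved were as follows. DESeq2 gave 108 called and 41 higher. Voom weights gave 203, 70 and 133. The fit on log2(FPKM + 0.1) gave 28, 24 and 4, and that on the 6 libraries alone 18, 15 and 3. With 5NC as control the counts were 0, 0 and 0. With one library left out, they ran from 27 to 81 called, 20 to 40 lower and 3 to 41 higher; fewer samples entered each of these fits. In all other respects the cause was not tested.

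The values gave no sign that replicate numbers pair the samples. Same-numbered OV and 3NC libraries deviated from their group means with correlations of -0.02, -0.17 and -0.18, and no OV library correlated best with its own number. The labels do not say whether samples were paired, and such correlations in groups of 3 cannot exclude it. With a replicate block, 29 genes were called in the fit of all groups (24 lower, 5 higher) and 4 in that of the 6 libraries (4 lower, 0 higher).

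With 5NC as control, 22 of the 52 genes had the opposite sign in OV and 0 were called. For those among the named genes, the log2 fold changes against 5NC were -0.26 for Osr1, 0.091 for Errfi1, 0.39 for Medag, 0.14 for Btg2, 0.94 for Myc, 0.28 for Ifrd1, 0.11 for Zfp36, 0.17 for Ugdh, 0.16 for Dusp1, 0.41 for Socs3, 0.31 for Atf3, 0.14 for Itga5, 0.15 for Bhlhe40, 1.15 for Ccl7, 0.0387 for Plk3, 0.37 for Maff and 0.12 for Fosl2. The median of interferon genes against 5NC was 1.10, and that of immediate early transcription factors was -0.07. At this depth genes with few reads, such as Cyp3a41a, carry wide errors.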
